A study of Homo sapiens with 6 samples.

Results

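The Ly6/uPAR family comprises small cell-surface and secreted proteins to which prostate stem cell antigen (PSCA), the target of the siRNA used here, belongs. The genes were chosen by name: PSCA, LY6E, LY6D, LY6K, LYNX1, LYPD1, LYPD3, LYPD6B, CD59 and PLAUR, which are 10 of the 58735 genes in the deposited expression table. RNA was sequenced from HCT116SCs, cells sorted for CD44 and CD326 from the human colorectal cancer line HCT116 and grown as spheres without serum in the presence of EGF, bFGF and B27. In 3 libraries the cells had received negative control siRNA (NC, labelled WT), and in 3 they had received PSCA siRNA (siPSCA, labelled PSCA knockdown); all were harvested 48 h after transfection. All 6 libraries derive from 1 cell line. The titles of siPSCA 2 and siPSCA 3 give other numbers after HCT, while their remaining labels name HCT116. Neither which PSCA siRNA was sequenced nor whether replicates were separate cultures is stated, so p-values measure only the spread between these samples, which may be technical.

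Members of this family fold into 1 or more three-finger domains, in which loops of the protein project from a core held together by disulphide bonds between cysteines. Most are tethered to the outer leaflet of the membrane by a glycosylphosphatidylinositol (GPI) anchor and so have no cytoplasmic part of their own. Their known roles differ widely. PLAUR is the urokinase receptor, which gathers plasminogen activation at the cell surface and contacts integrins. CD59 stops the last step of assembly of the complement membrane attack complex. LYNX1 and several relatives bind nicotinic acetylcholine receptors, and LY6E is an interferon-inducible protein that affects the entry of several viruses.

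The end of a three-finger domain shows in the coding sequence as paired cysteine codons, 4 further codons, a cysteine codon and an asparagine codon. This pattern was sought in frame in the longest coding sequence of each gene in GENCODE release 29. It was held by 9 of the 10 genes and, among all 19514 protein-coding genes read, by 50 genes (0.256%). Of the 24 further Ly6/uPAR genes listed for comparison, 15 held it. The longest coding sequence of LY6E did not hold it, whereas 7 of its 14 coding transcripts did. The stretches of 4 genes tested below are printed 5′ to 3′ on the coding strand, with the cysteine and asparagine codons in capitals, to show what these genes share while their expression differed.
PLAUR, first match: TGCTGCaacaccaccaaaTGCAAC
PLAUR, second match: TGCTGTactaaaagtggcTGTAAC
CD59: TGCTGCaagaaggacctgTGTAAC
LYPD3: TGTTGCcaggggtcccgcTGTAAC
LYPD6B: TGCTGTgaaggaatgatcTGCAAT
On GRCh38 these coding exon segments lie at chr19:43655449-43655472 and chr19:43649016-43649039 (PLAUR, minus strand), chr11:33710228-33710251 (CD59, minus strand), chr19:43461726-43461749 (LYPD3, minus strand) and chr2:149214558-149214581 (LYPD6B, plus strand). PLAUR, whose protein carries several such domains, matched at codons 192 to 199 and 287 to 294 of 335, and CD59, with a single domain, at codons 88 to 95 of 128.

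Expression was measured as FPKM, reads scaled to the length of the gene and the size of the library. The length was that of all annotated exons together (for CD59, 10358 bases), so comparisons of level between genes are approximate. The libraries held between 16099716 and 17302219 reads on genes, and 1 read on a gene of 1 kb corresponded to between 0.0549 and 0.0595 FPKM. The sorting markers CD44 (59.6 to 87.5 FPKM) and EPCAM, which encodes CD326 (93.3 to 122.9 FPKM), were high in every library, as were all 4 epithelial markers (18.8 to 377.9 FPKM). Some of these moved with the groups by limma, where 50.7% of all tested genes passed an adjusted p of 0.05. CD44 fell by 0.44 and CDH1 by 0.60 on the log2 scale. KRT8 rose by 0.22 and KRT19 by 0.25, and EPCAM and KRT18 did not pass. Of 7 stem cell markers only PROM1 reached a mean FPKM of 1, and it fell by 0.59. Of 3 intestinal markers CDX1 was at 0 and VIL1 near 0, while CDX2 rose by 0.70, from 1.68 to 2.51 FPKM in NC to 3.99 to 4.18 FPKM in siPSCA. The summed level of 3 blood markers stayed between 0 and 0.155 FPKM. The summed level of 3 fibroblast markers was 3.44 to 5.70 FPKM in NC and 6.06 to 6.64 FPKM in siPSCA, nearly all of it COL1A1. COL1A1 did not pass (log2 fold change 0.35, limma adjusted p = 0.111), and its lowest value, 3.35 FPKM, was in NC 3. The part of these markers in the results was not tested. The library NC 3 stood apart from NC 1 and NC 2: the chi-square per gene between NC 3 and the others was 24.4 and 19.5, against 2.40 to 4.15 for the other pairs within a group. Across the tested genes its deviation from NC 1 and NC 2 fell with the GC content of the transcript (Spearman's rho −0.561 over 13792 genes, a description across genes that share libraries). Values without NC 3 and after removal of a trend on GC content and gene length are therefore given beside the results they change. Such values are not given for the cell markers above.

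The 10 genes covered almost the full range of expression. LY6E was the highest, at the 98.0th percentile of mean FPKM among 19951 protein-coding genes, followed by PLAUR (88.1), CD59 (74.0), LYPD3 (63.6), LYPD6B (47.3), LYNX1 (45.6), PSCA (37.0), LY6D (31.7) and LY6K (26.1), and LYPD1 had no read in any library. In NC the neighbours CD59 and LYPD3 did not overlap, nor did PLAUR and LY6E or LYPD3 and LYPD6B. LYPD6B lay above LYNX1 in every NC library and under it in every siPSCA library, and PSCA and LY6D overlapped in siPSCA. Thus 9 genes had a read and 6 passed the minimum for testing, a mean FPKM of 1 over all libraries. By limma on log2(FPKM + 1), with adjustment over 13796 genes, LY6E and LYNX1 rose, PLAUR and CD59 fell, and LYPD3 and LYPD6B did not pass. These 4 calls among 6 stand against 50.7% of all tested genes past the same threshold, of which 26.6% were higher and 24.2% lower in siPSCA. The groups did not overlap for all 6 tested genes, 3 higher and 3 lower, against 64.5% of all tested genes. The median log2 fold change was 0.10 over the 6 genes and 0.01 over all tested genes. The share called was thus near the background, and it is the size and direction of single genes that follow.

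**Figure D1:**
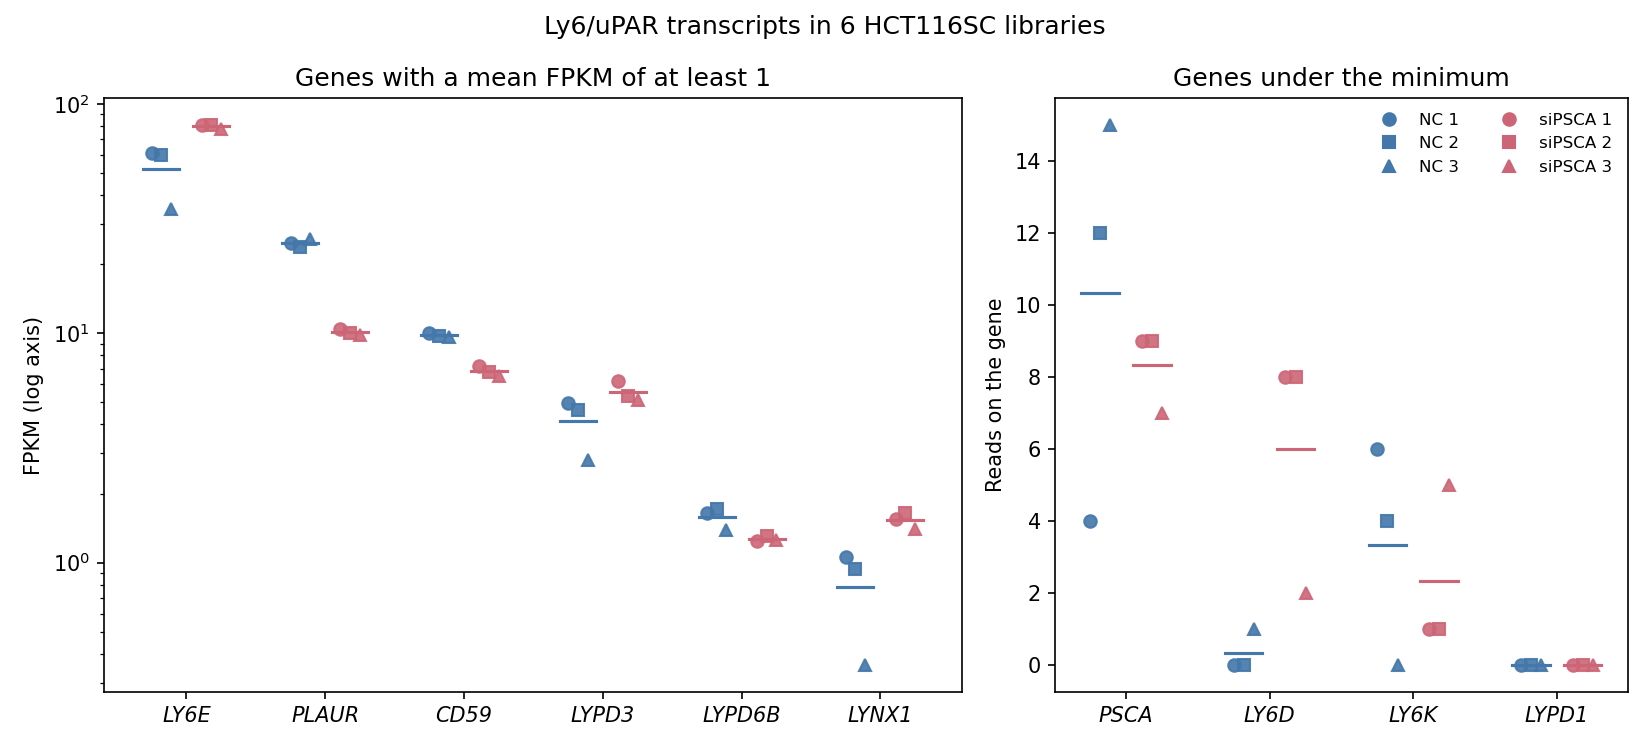
Each point is 1 library (circle, square and triangle for replicates 1, 2 and 3; blue NC, red siPSCA) and each bar the group mean of 3 libraries. The left panel shows FPKM on a log axis for the 6 genes with a mean of at least 1, where PLAUR and CD59 lay lower and LY6E and LYNX1 higher in all 3 siPSCA libraries, and NC 3 lay far under NC 1 and NC 2 for LY6E, LYPD3 and LYNX1; the right panel shows reads on the 4 other genes, between 0 and 15.

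PLAUR (ENSG00000011422; chromosome 19, 43646095 to 43670547, minus strand, GRCh38) encodes the urokinase receptor and had the largest change of the 6 tested genes on the log2(FPKM + 1) scale. Its level was 24.6, 23.7 and 25.7 FPKM in NC 1, 2 and 3 and 10.4, 10.04 and 9.86 FPKM in siPSCA 1, 2 and 3. All 3 siPSCA libraries lay far under all NC libraries, and neither group held a library that stood apart. The mean fell by 59.1%, from 24.7 ± 0.970 to 10.1 ± 0.265 FPKM (SD, n = 3). On the log2(FPKM + 1) scale the change was −1.21 (SE 0.05, 95% interval −1.33 to −1.09, limma adjusted p = 0.000125). Of the 13796 tested genes, 125 (0.906%) had a fold change at or under that of PLAUR. The call rested on 5658 reads in NC and 2379 in siPSCA, a ratio of 0.409 (exact 95% interval 0.390 to 0.429; intervals from reads cover counting error only). Across the 14 alternatives run, leaving out each library among them, the log2 fold change of PLAUR ranged from −1.48 to −1.18 and its adjusted p stayed at or under 0.00438. The −1.48 came after removal of the GC and length trend. No exon of another gene overlapped PLAUR. As this was bulk RNA, fewer cells carrying a transcript and less of it per cell cannot be told apart.

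CD59 (ENSG00000085063; chromosome 11, 33703010 to 33736491, minus strand), the inhibitor of the membrane attack complex, fell as well, by a smaller amount. Its level was 10.05, 9.70 and 9.59 FPKM in NC 1, 2 and 3 and 7.17, 6.78 and 6.51 FPKM in the siPSCA libraries. The groups were separated by more than 2 FPKM and NC 3 was close to the other NC libraries. The mean fell by 30.2%, from 9.78 ± 0.239 to 6.82 ± 0.332 FPKM (n = 3), with a log2 fold change of −0.46 (SE 0.05, 95% interval −0.60 to −0.33, limma adjusted p = 0.00173). The fold change ranged from −0.55 to −0.32 over 14 alternatives, all past the threshold, and −0.32 was the value without the GC and length trend. A second gene model on the same strand, AL049629.2, shares 6.07% of the exonic bases of CD59 and was listed with 0 to 1 reads. Over the 6 libraries the levels of CD59 and PLAUR ran in parallel (Pearson's r = 0.99 on log2(FPKM + 1), n = 6), a value to which the difference between the groups contributes.

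The 250 bases before the transcript start of a gene were available from RefSeq (GRCh38.p14) for 5 of the 10 genes and were searched for 4 short motifs on both strands. The AP-1 motif TGANTCA, which is its own reverse complement and is bound by FOS and JUN proteins, was found once before the PLAUR start, as TGAGTCA 186 to 180 bases upstream. It was also found at 2 places before 1 of 4 CD59 starts, 117 to 111 and 23 to 17 bases upstream. That start lies 13764 bases inside CD59, and the starts 12 and 68 bases from the 5′ end of the gene had no match. The motif stood as well at 2 places before 1 of 2 starts of LYPD1, a gene without reads here. Among all 35116 windows 6.57% held this motif. The GC box GGGCGG, a motif of SP factors, stood at 2 places each before LYPD3, another CD59 start and the other LYPD1 start, and was in 42.6% of all windows. The core of the hypoxia response element, ACGTG (18.5% of windows), was found before 1 CD59 start and both LYPD1 starts, and TATAAA (10.7%) before 1 LYPD6B start. In GENCODE release 29 the PLAUR window lies within the first exon of a longer transcript, and the LYPD3 and CD59 windows also overlap annotated exons. Such matches describe letters in a window and not binding.

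LY6E (ENSG00000160932; chromosome 8, 143017982 to 143023832, plus strand) was the most abundant gene of the family in both groups. Its level was 61.0, 59.9 and 34.7 FPKM in NC 1, 2 and 3 and 80.7, 80.8 and 77.5 FPKM in siPSCA. The siPSCA libraries were tightly grouped above all NC libraries, while NC 3 was at 0.573 of the mean of NC 1 and NC 2. The mean rose from 51.9 ± 14.9 to 79.7 ± 1.87 FPKM (n = 3), with a log2 fold change of 0.65 (SE 0.21, limma adjusted p = 0.0425). Without NC 3 the fold change was smaller and its error too (0.39, adjusted p = 0.000507). With the GC and length trend removed it was 0.01 (adjusted p = 0.95), so that the call was lost. It was also lost without any 1 of the siPSCA libraries (adjusted p = 0.0913 to 0.111), with no FPKM minimum (0.108) and with quantile normalization (0.0576).

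LYNX1 (ENSG00000180155; chromosome 8, 142771197 to 142777810, minus strand), a modulator of nicotinic receptors, showed the same order of libraries at a far lower level. It was at 1.05, 0.938 and 0.358 FPKM in NC and 1.54, 1.65 and 1.40 FPKM in siPSCA, from 89, 82 and 31 and from 131, 147 and 128 reads. NC 3 was again the lowest, at 0.360 of the mean of NC 1 and NC 2, and the groups did not overlap. The log2 fold change was 0.53 (SE 0.18, limma adjusted p = 0.0461). It was 0.34 without NC 3 (adjusted p = 0.0387) and −0.06 with the GC and length trend removed (adjusted p = 0.628). With a pseudocount of 0.1 it was 0.99 (adjusted p = 0.0732) and with TPM 0.80 (0.0637), both not called, and by limma-voom 1.13 (0.0203, called). The call was lost as well without NC 2 or any 1 siPSCA library (0.0620 to 0.127) and with no FPKM minimum (0.119). The readthrough gene LYNX1-SLURP2, on the same strand, shares 7.83% of the exonic bases of LYNX1 and held 0 to 7 reads.

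LYPD3 (ENSG00000124466; chromosome 19, 43460787 to 43465660, minus strand) encodes C4.4A, a relative of the urokinase receptor known from squamous epithelium. It was at 4.98, 4.60 and 2.79 FPKM in NC 1, 2 and 3 and 6.22, 5.34 and 5.10 FPKM in siPSCA, with NC 3 lowest and no overlap. Its difference did not pass the threshold (log2 fold change 0.38, SE 0.18, 95% interval −0.06 to 0.82, limma adjusted p = 0.125). Without NC 3 it was 0.17, and with the GC and length trend removed −0.05. Thus LYPD3, on the same chromosome as PLAUR and its close relative, had an interval wholly above that of PLAUR; the difference between the genes was not tested.

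LYPD6B (ENSG00000150556; chromosome 2, 149038107 to 149215262, plus strand), a relative of LYNX1, was at 1.64, 1.72 and 1.39 FPKM in NC and 1.24, 1.31 and 1.25 FPKM in siPSCA. The siPSCA libraries were the 3 lowest, with NC 3 the nearest to them. The log2 fold change of −0.19 (SE 0.09, 95% interval −0.41 to 0.04) did not pass (limma adjusted p = 0.135) and stayed between −0.30 and −0.13 over the 14 alternatives without passing in any.

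**Figure D2:**
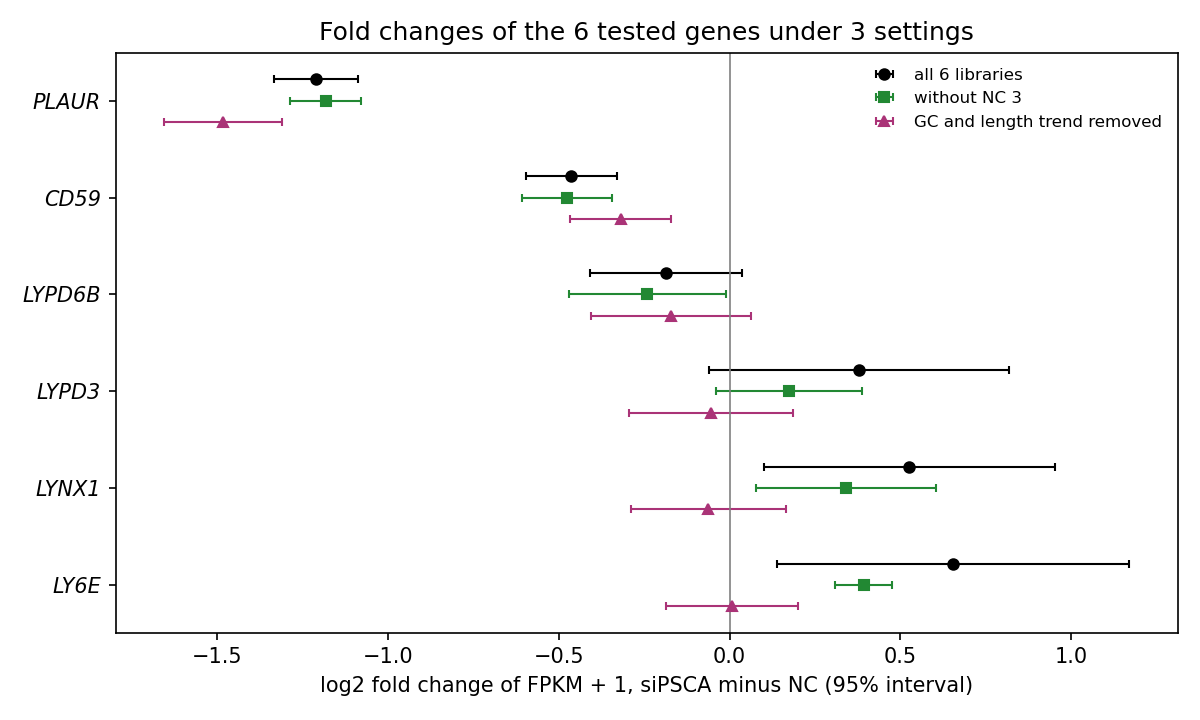
Log2 fold changes of FPKM + 1 (siPSCA minus NC) with 95% intervals for the 6 tested genes, from all 6 libraries (black), without NC 3 (green) and with the trend on GC content and gene length removed (purple). PLAUR and CD59 lay under 0 in all 3 settings, whereas LY6E, LYNX1 and LYPD3 lay above 0 in the first 2 settings and at 0.01, −0.06 and −0.05 in the last.

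GC content differed between the tested genes that were higher and those that were lower in siPSCA. The 3 genes that were higher in siPSCA had GC contents of 64.2% (LY6E), 63.6% (LYNX1) and 59.4% (LYPD3), and CD59 and LYPD6B, which were lower, had 45.5% and 46.1%. With the GC and length trend removed, CD59 went from −0.46 to −0.32 and LYPD6B from −0.19 to −0.17. PLAUR, at 55.7%, was lower although the median of tested genes was 48.1%. Over all 13792 tested genes with a value, Spearman's rho between fold change and GC content was 0.664, given as a description since genes share the same libraries. Removing the trend takes out any difference between the groups that follows GC content, whatever its source. It therefore cannot tell apart GC content and the siRNA in the rises of LY6E and LYNX1. The trend was not removed with NC 3 left out. Of the 4 calls, those of PLAUR and CD59 were left after the removal, 2 of 6 genes against 39.6% of all genes tested in that way. These were also the 2 tested genes whose groups then still did not overlap. The share of all genes without overlap was not computed after that removal.

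**Figure D3:**
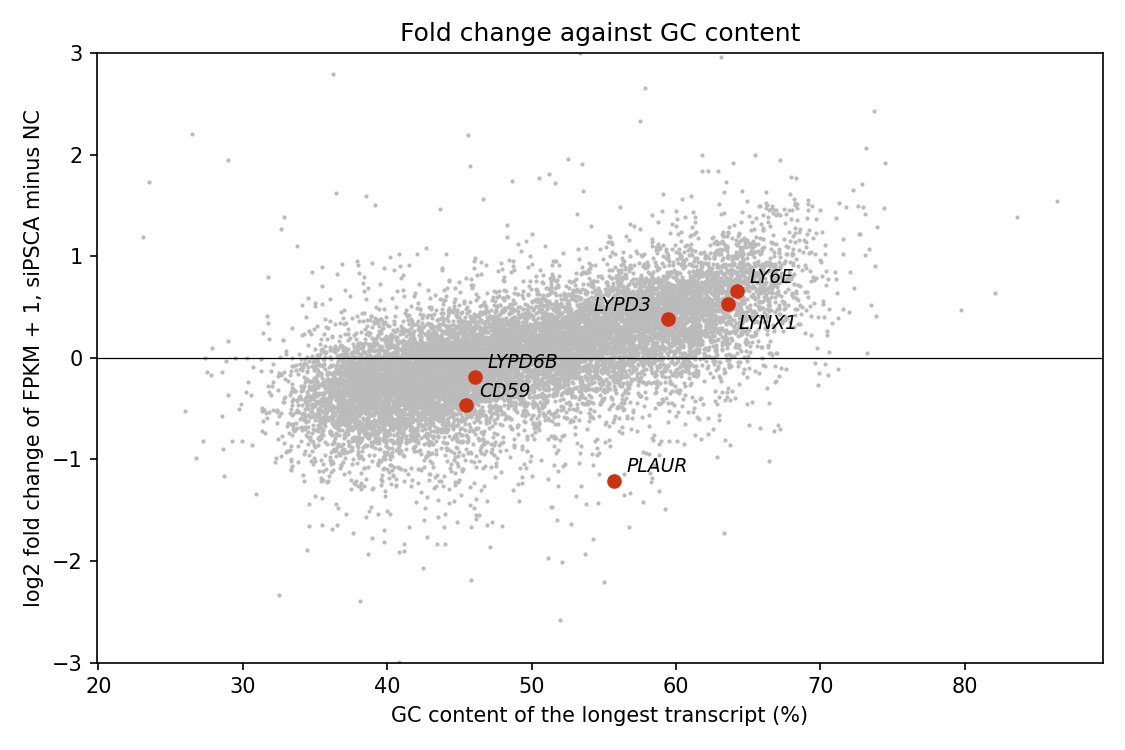
Each grey point is a tested gene, with the GC content of its longest transcript on the x axis (%) and its log2 fold change of FPKM + 1 (siPSCA minus NC) on the y axis; 4 genes lie beyond the axis limits of 3. The red points are the 6 tested Ly6/uPAR genes: LY6E, LYNX1, LYPD3, CD59 and LYPD6B lie within the rising cloud, and PLAUR lies under it.

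PSCA itself (ENSG00000167653; chromosome 8, 142670308 to 142682724, plus strand) was under the minimum in these cells. It held 4, 12 and 15 reads in NC 1, 2 and 3 and 9, 9 and 7 reads in siPSCA, so the groups overlapped and the lowest library was a control. The siPSCA to NC ratio of reads per library total was 0.784 with an exact 95% interval of 0.444 to 1.37, and the log2 fold change of −0.07 did not pass (SE 0.12, limma adjusted p = 0.728 over all 34391 genes with a read, of which 16.3% passed). No fall of PSCA RNA was thus detected at this depth. The paper reports the knockdown in these cells at the protein level, by Western blot. JRK, on the opposite strand, shares 20.9% of the exonic bases of PSCA, and its reads could not be told from those of PSCA there since no strand setting is stated.

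The other genes under the minimum were close to absent. LY6D, known from keratinocytes and lymphocyte precursors, held 0, 0 and 1 reads in NC and 8, 8 and 2 in siPSCA, a ratio of 17.5 (exact 95% interval 2.76 to 729; limma adjusted p = 0.0905). LY6K, a gene of the testis, held 6, 4 and 0 reads in NC and 1, 1 and 5 in siPSCA, in overlapping ranges (adjusted p = 0.765), and 71.0% of its exonic bases are shared with LNCOC1 on the opposite strand. LYPD1, a brain-expressed relative of LYNX1, had 0 reads in all 6 libraries, which allows up to 0.0683 to 0.0740 FPKM (3 reads). By limma 0 of these 3 genes with a read, PSCA among them, passed the adjusted threshold, against 16.3% of all genes with a read. Only 1 (LY6D) had an unadjusted p under 0.05, and limma-voom on the recovered reads also called 1, LY6D. Its log2 fold change was 0.27 in limma and 2.94 in limma-voom. The shares of all genes with a read that pass by unadjusted p or limma-voom are not given here. The groups of LY6D did not overlap, while those of PSCA and LY6K did. The share without overlap over all genes with a read was not computed.

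By FPKM without removal of the trend, PLAUR made up less and LY6E more of the family sum in siPSCA. Shares are parts of the same sum, so that of LY6E also rises where PLAUR falls. Summed over the 10 genes, expression was 103.6, 101.0 and 75.0 FPKM in NC and 107.9, 106.5 and 102.0 FPKM in siPSCA, with NC 3 the lowest. LY6E made up 58.9%, 59.3% and 46.2% of the sum in NC 1, 2 and 3 and 74.8%, 75.9% and 76.0% in siPSCA. The share of PLAUR was 23.8%, 23.5% and 34.2% in NC and 9.62%, 9.42% and 9.67% in siPSCA. Neither share overlapped between the groups. Within a library, LY6E was 2.48, 2.52 and 1.35 times as high as PLAUR in NC and 7.77, 8.05 and 7.86 times as high in siPSCA. Without LY6E the sum fell from 41.4 ± 1.15 to 25.8 ± 1.35 FPKM (n = 3; exact permutation tests of 3 against 3 libraries cannot go below p = 0.1), with every siPSCA library (24.5 to 27.2 FPKM) under every NC library (40.3 to 42.6 FPKM). With the GC and length trend removed, the log2 fold changes of LY6E and PLAUR lay 1.49 apart, against 1.86 before. LY6E was then at 0.01 and PLAUR at −1.48, so that distance was nearly all the fall of PLAUR.

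Genes that act with PLAUR were taken from a list of 17 components of the urokinase system, of which 11 were tested. Of these, 2 rose, 5 fell and 4 did not pass (63.6% called, against 50.7% of all tested genes), with a median log2 fold change of −0.08 against 0.01 over all tested genes. ITGB1, the integrin β1 chain, was at 122.3, 125.7 and 144.0 FPKM in NC and 83.5, 83.4 and 86.7 FPKM in siPSCA. The groups did not overlap and NC 3 was the highest. ITGB1 fell by 0.62 (SE 0.07, limma adjusted p = 0.00161) and SERPINE2, an inhibitor of plasminogen activators, by 0.58 on the log2 scale. PLAU, the urokinase that PLAUR binds, moved the other way, from 13.9, 14.2 and 15.3 to 19.4, 18.8 and 16.6 FPKM. The groups of PLAU did not overlap (log2 fold change 0.31, adjusted p = 0.0148), but with the GC and length trend removed the value was 0.08 (adjusted p = 0.429). ITGB5, the integrin β5 chain, rose by 0.27 and was likewise not called after that removal (0.09, adjusted p = 0.321). The falls of ITGB1 and SERPINE2 kept their call in all 14 alternatives, at −0.33 and −0.29 with the trend removed.

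Around CD59, 17 complement regulators and terminal components were listed and 4 tested, of which 1 rose, 2 fell and 1 did not pass (3 of 4 called, against 50.7% of all tested genes; median log2 fold change −0.11). CD55, a GPI-anchored regulator that dissociates the convertases upstream of CD59, was at 9.85, 10.7 and 10.7 FPKM in NC and 4.72, 3.90 and 3.84 FPKM in siPSCA. Every siPSCA library lay under every NC library, with a log2 fold change of −1.15 (SE 0.08, limma adjusted p = 0.000548). CD46, a transmembrane regulator, fell by 0.27 (adjusted p = 0.0145), but its value was 0.09 with the GC and length trend removed (adjusted p = 0.414). CLU, a secreted chaperone that binds terminal complement components, rose from 26.6, 27.1 and 27.3 to 54.9, 52.8 and 51.8 FPKM, a log2 fold change of 0.95 (SE 0.04, adjusted p = 0.000164). The calls of CD55 and CLU held in all 14 alternatives.

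**Figure D4:**
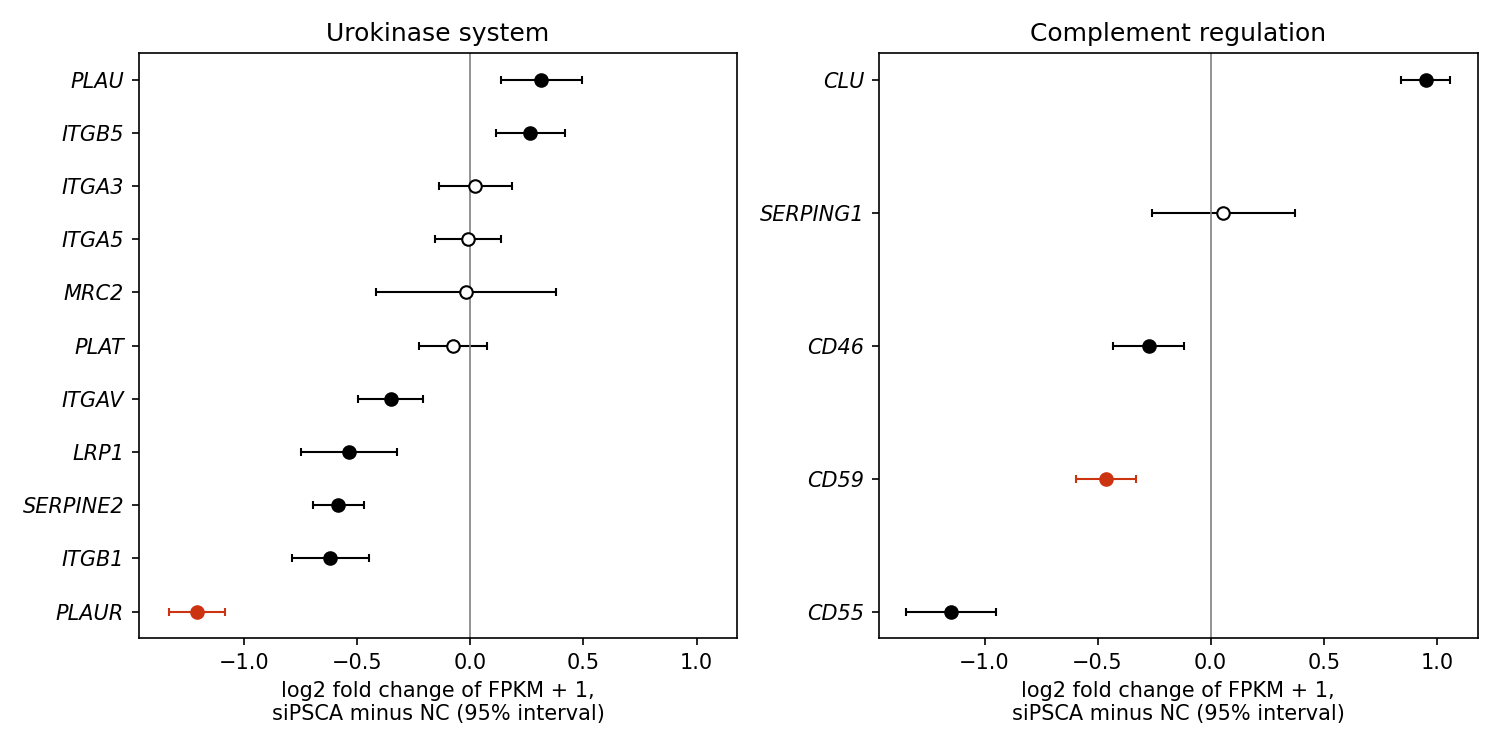
Log2 fold changes of FPKM + 1 (siPSCA minus NC) with 95% intervals for 10 of the 11 tested genes of the urokinase system with PLAUR (left) and of complement regulation with CD59 (right); family members are red and open circles did not pass an adjusted p of 0.05. Of the genes shown, PLAUR was lowest on the left at −1.21, followed by ITGB1 at −0.62, and on the right CD55 was at −1.15 and CLU at 0.95.

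Most Ly6/uPAR proteins depend on the GPI anchor, so genes of its synthesis, transfer to proteins and remodelling were examined. Of 30 such genes 27 were tested, of which 10 rose, 6 fell and 11 did not pass (59.3% called, against 50.7% of all tested genes; median log2 fold change 0.10). DPM1, which makes the mannose donor, fell by 0.52, PIGA, the catalytic subunit of the first step, by 0.42, and PGAP1, which removes an acyl chain from the anchor, by 0.35. GPAA1, a subunit of the transamidase that attaches the anchor, was at 16.6, 14.8 and 6.41 FPKM in NC and 30.0, 27.5 and 27.5 FPKM in siPSCA, with NC 3 far under the other controls. It rose by 1.20 (limma adjusted p = 0.0215), by 0.81 without NC 3, and by 0.54 with the GC and length trend removed, where it was not called (adjusted p = 0.0514). TMEM8A, a remodelling enzyme, rose by 0.86 and PIGQ, a subunit of the first step, by 0.78. With the trend removed 10 genes of this list were called, against 39.6% of all genes tested in that way. TMEM8A was then at 0.24 (adjusted p = 0.0171), PIGQ, DPM1, PIGA and PGAP1 were not called, and PGAP1 turned to 0.05.

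Of the 24 further Ly6/uPAR genes in the table, 8 had no read and 2 were tested. The rest held reads but lay under the minimum, and their differences are not described here. LYPD6, a relative of LYPD6B that acts in WNT signalling, was at 1.20 to 1.49 FPKM in NC and 1.04 to 1.57 in siPSCA, and LY6G5B, a gene of the major histocompatibility complex region, at 1.74 to 2.22 and 1.82 to 1.92 FPKM. Their ranges overlapped. By limma 0 of the 2 passed, against 50.7% of all tested genes, 0 had an unadjusted p under 0.05, and limma-voom called 0. The nicotinic acetylcholine receptor subunits, the partners of LYNX1, gave 0 calls among 3 tested of 16, against the same 50.7%. They gave 0 at an unadjusted p under 0.05 and 0 by limma-voom, with a median log2 fold change of 0.02. The 5 family genes on chromosome 8 lie within 353.5 kb. Of 17 other genes whose lowest coordinate lies in that window, THEM6 alone was tested. JRK, on the minus strand, has its lowest coordinate outside that window and its highest within PSCA, and it was tested as well. Its level was 2.80 to 3.21 FPKM in NC and 3.74 to 3.89 FPKM in siPSCA, without overlap, a log2 fold change of 0.27 (limma adjusted p = 0.0161) that was 0.06 with the GC and length trend removed (0.407). THEM6 was at 4.03, 4.004 and 1.98 FPKM in NC and 5.82, 5.82 and 6.32 FPKM in siPSCA, with NC 3 lowest as for LY6E and LYNX1. The log2 fold change of THEM6 was 0.73 (limma adjusted p = 0.0280), 0.48 without NC 3 (0.00126) and 0.13 with the GC and length trend removed (0.335), and its call was lost without any 1 siPSCA library (0.0722 to 0.0797) and with no FPKM minimum (0.0765).

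The genes with the profile most like each member were sought among 11078 other protein-coding genes by Pearson's r of log2(FPKM + 1) over the 6 libraries. For PLAUR these were HERPUD1, GPRC5A and P4HA1, and for CD59 FAM110C, PTPRH and LOXL2. LY6E was most like HELZ2, ANAPC2 and KIAA2013, LYNX1 most like ARF5, SDF2L1 and PGGHG, LYPD3 most like MDFI, CYB561D1 and PPAN, and LYPD6B most like TMEM168, GUK1 and FKBP11. All these values were 0.9899 or higher. Among 6 libraries in 2 groups, however, a value of at least 0.95 was reached by 13.4% of genes with PLAUR, 12.7% with LY6E, 14.5% with LYNX1 and 0.740% with LYPD6B. Within the family, LY6E and LYNX1 (0.99) and LY6E and LYPD3 (0.96) were most alike besides PLAUR and CD59, the former pairs sharing the low value of NC 3.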

How the data were processed

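RNA-seq libraries of HCT116SCs (NC, n = 3; siPSCA, n = 3) were prepared with the NEBNext Ultra RNA kit and read as pairs. The authors deposited FPKM values for 58735 genes together with the gene length in bases (a further value, other than expression) and positions; the build was GRCh38 by the submitters' processing notes, and all identifiers, starts and ends were those of GENCODE release 29. Aligner, counting program and strand setting are not given in the sources used here. Reads per gene, recovered from FPKM and gene length, were whole (within 0.1 reads) for 100% of values.

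Log2(FPKM + 1) was fitted with limma 3.58.1 (lmFit, eBayes with trend) in R 4.3.3 by group, for the 13796 genes whose FPKM averaged 1 or more over the libraries, and p-values were adjusted by Benjamini and Hochberg with a threshold of 0.05. Genes under the minimum were taken from the same fit over 34391 genes with a read. Every adjusted p is from limma. Alternatives were a pseudocount of 0.1, no minimum, TPM, quantile normalization, limma-voom on recovered reads, a replicate block, removal of splines (5 degrees of freedom) on GC content of the longest transcript and gene length from each library, and each library left out. The trend was fitted on genes over the minimum and was not applied to genes under it. Same-numbered libraries were compared by the correlation of their deviations from the group means. The statistics were tested on simulated data. Python 3.11.15, pandas 2.3.3, numpy 2.4.6, scipy 1.17.1 and matplotlib 3.10.9 were used.

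The members and gene lists were chosen with earlier results of these data known. Genes named were the 10 members, from each list up to 3 genes that rose and 3 that fell with the largest changes past the threshold, further Ly6/uPAR genes over the minimum, genes overlapping a member, and the 3 genes most alike to each tested member. Listed genes LY6S and PGAP4 had no row under that name. A gene that this rule names is not reported here.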

Additional observations from a re-analysis of the deposited data

How the results depend on the processing

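Of the 4 calls, those of PLAUR and CD59 held in all 14 alternatives and those of LY6E and LYNX1 in 7 and 5. The number of Ly6/uPAR genes called was 2 with no FPKM minimum and 2 with the GC and length trend removed. It was also 2 with the replicate block and that removal, and 2 to 4 with a library left out. Of all genes, 16.3%, 39.6% and 33.6% were called in the first 3 of these settings, and 33.5% to 53.8% with a library left out. LY6E and LYNX1 lost their call without siPSCA 1, siPSCA 2 or siPSCA 3, and LYNX1 also without NC 2. Tested genes without overlap numbered 2 with the trend removed. With a library left out the number was 6 each time. That was fixed in advance, since leaving out a library cannot make separate groups overlap. For these settings the share without overlap over all genes was not computed. All genes called numbered 4639 with the replicate block and the trend removed and 4627 to 7425 with a library left out, against 7001. With the replicate block alone 4 family genes and 6725 genes were called; same-numbered libraries correlated at 0.0956, 0.0133 and 0.134 in their deviations, NC 2 correlated best with siPSCA 1, and the samples were taken to share only a number. LY6D was the 1 gene under the minimum called by limma-voom, and the range was 0 to 1 with a library left out (1 without siPSCA 3).

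Signs turned, with a library left out, for PSCA (−0.18 to 0.014, positive without NC 3), LY6K (−0.056 to 0.0053, positive without NC 1), LYPD6 (−0.16 to 0.0030, positive without siPSCA 3) and LY6G5B (−0.048 to 0.067, positive without NC 2 or siPSCA 2). With quantile normalization LY6K was at 0.0014 and LY6G5B at 0.020, and with limma-voom LY6G5B was at 0.015. With the trend removed, with or without the replicate block, LYNX1 turned to −0.062, LYPD3 to −0.054, CD46 to 0.087, PGAP1 to 0.055 and LYPD6 to 0.12. None of these turned values passed the threshold, and the cause was not tested. The number of reads limits what can be said of PSCA, LY6D, LY6K and LYPD1.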

Other observations

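CHRNA9, a nicotinic acetylcholine receptor subunit under the FPKM minimum, is named here after its values were seen. It held 13, 16 and 11 reads in NC and 3, 0 and 2 reads in siPSCA, so that every siPSCA library lay under every NC library. In limma over all genes with a read, of which 16.3% passed, its adjusted p was 0.0138. Over 11 alternatives the adjusted p ranged from 0.00544 to 0.0602. Of the 3 tested subunits, 1 passed the adjusted threshold with the GC and length trend removed, with or without the replicate block. Of all genes tested in those ways, 39.6% passed without the block and 33.6% with it, so this count was near the background. Under the other alternatives run 0 of the 3 passed.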
